A study of Sus scrofa with 4 samples.

Results

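The nuclear genes of the respiratory chain and of ATP synthase were examined in porcine granulosa cells (GCs) that had been cocultured with cumulus-oocyte complexes (COCs) during in vitro maturation (IVM). Genes were taken by symbol, namely those that start with NDUF (complex I), SDH (complex II), UQCR (complex III), COX followed by 4, 5, 6, 7 or 8 (complex IV) and ATP5 (complex V, the ATP synthase). Of the 9962 genes that had a single-gene probe and a value on all arrays, 43 met this rule. They were 27 genes placed in complex I by name and 3 NDUFAF assembly factors of complex I. The others were UQCRB of complex III, COX6C and COX7C of complex IV, and 10 ATP5 genes. The 27 include NDUFA4 and NDUFA4L2, which carry the NDUF name but were marked as complex IV genes. The rule took 78 pig symbols in the RefSeq gene table, and for 35 of them no probe was named in the annotation at hand, so those genes were not analysed here. All SDH genes were among the 35, and complex II therefore has no value.

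The arrays compared GCs exposed to elevated non-esterified fatty acids (NEFAs), a mixture of palmitic, stearic and oleic acid, with control GCs that received the same medium with the albumin and ethanol vehicle alone. Both groups were monolayers grown from cells aspirated from slaughterhouse ovaries. Both shared the coculture with COCs and the epidermal growth factor and porcine follicular fluid of the IVM medium. They also shared its gonadotropins and dibutyryl-cyclic AMP, which were left out when the medium was renewed midway through IVM. COCs were removed before the monolayers were lysed, and the wells of a culture plate were pooled as 1 replicate, so a value is the mean of many cells and animals. There were 4 biological replicates, collected on different days, and each gave 1 NEFA RNA and 1 control RNA that were labelled with different dyes and hybridized to the same array (array A for replicate 1, then B, C and D for the others).

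The respiratory chain of the inner mitochondrial membrane passes electrons to oxygen and pumps protons. Complex I accepts electrons from NADH and complex II from succinate, both hand them to ubiquinone, complex III moves them on to cytochrome c, and complex IV reduces oxygen. ATP synthase lets the protons flow back through its membrane part, Fo, and makes ATP in its matrix part, F1. Oxidation of fatty acids supplies this chain with electrons, and in the ovary mitochondria also carry out the first step of steroid synthesis.

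The dye of the NEFA RNA differs between 2 places in the labels, titles and channel fields, on each of the 4 arrays. The channel fields set the direction of the ratios (NEFA over control). On that basis 4 of 5 measured genes take the array direction stated in an RT-qPCR legend (AGPS, MAP3K8, IL33 and GAPDH, but not AGO1, and with GAPDH not above background). Those stated directions came from the same arrays and are no independent support. In the RT-qPCR itself AGO1 was among the genes reported to share the array direction, and AGPS was not. The direction by the channel fields is likely the one the study used, and it is not settled. By the titles every ratio changes sign, with "higher" for "lower" and "above 0" for "below 0" throughout, and the same sizes, counts and p-values.

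Array A also ran against array B, although both readings of the labels give them the same dyes. The Pearson correlation of their log2 ratios was -0.74 over all probes and -0.84 over the 43 genes, of which 34 had opposite signs on the 2 arrays. For arrays C and D, which were also labelled alike, it was 0.47 and 0.32, with 10 opposite signs. Probes and genes of 1 array share its labelling and are not independent. Local background was brighter in green on array A (117, and 63.3 in red) and brighter in red on the other arrays (60.8 to 75.1 in green and 116 to 173 in red). When 58 control probes of each array were correlated with the average over the rest, r was -0.99 for array A and 0.88 to 0.98 for the others. Results are therefore given in 2 readings, first with the columns of array A as headed and then with its channels exchanged, and which of these holds cannot be told from the labels.

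**Figure D1:**
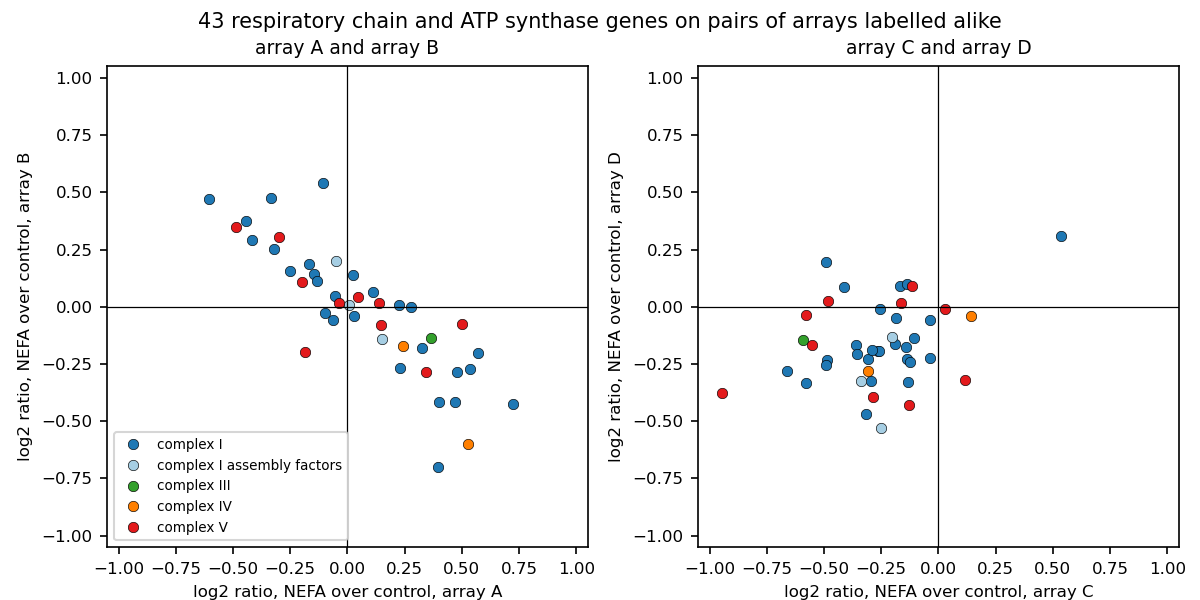
NEFA over control (log2 ratio) of the 43 genes on array B against array A (left) and on array D against array C (right), columns as headed, with each point a gene coloured by complex. Points of the left panel fall along a line of opposite signs (34 of 43), whereas most points of the right panel lie below 0 on both arrays (32 of 43).

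The genes were well expressed. Detection was set at 2 SD over the mean of 153 negative control spots, per array and dye, and a gene counted as above background if its probe reached this on every array in at least 1 of the 2 conditions. By this measure 41 of the 43 genes (95.3%) were above background, against 29.2% of all genes, and NDUFA4L2 and NDUFAF1 were not. Between 23.9% and 42.7% of all probes were above background per array and dye, and no probe was saturated.

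With the columns as headed, none of the 43 genes passed the criterion, which asked for a 1.2-fold change and for p under 0.05 in limma before adjustment, and none had an unadjusted p under 0.05. Their log2 ratios of NEFA to control ran between -0.35 and 0.14, with a median of -0.11, and 35 of 43 were below 0. Over all genes 0.281% passed as higher and 0.522% as lower, the median was -0.022, and 58.1% were below 0. Among genes above background the median was -0.055 and 65.8% were below 0. The smallest unadjusted p of the 43 was 0.0638 (NDUFC1), and after Benjamini-Hochberg adjustment over all probes no probe was under 0.05 (limma). In a lysate of a whole monolayer, less RNA per cell and fewer cells that express a gene cannot be told apart.

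After the exchange on array A, 7 of the 43 genes passed as lower with NEFAs and none as higher. These were NDUFA12, NDUFB1, NDUFB3, NDUFB5 and NDUFC2 of complex I, the assembly factor NDUFAF4 and UQCRB of complex III, with falls of up to 1.27-fold. The 7 are 16.3% of the 43, whereas 1.08% of all genes passed as higher and 3.08% as lower. Genes above background passed more often than all genes did, 9.47% of them as lower (276 of 2913) and 2.3% as higher (67). COX6C and NDUFS4 had an unadjusted p under 0.05 from limma without reaching 1.2-fold. The median log2 ratio of the 43 genes was -0.14, with 36 of 43 below 0, against -0.010 and 54.0% over all genes and -0.045 and 59.9% over genes above background. No gene of the 43 passed after adjustment over all probes, the smallest adjusted p being 0.641 (limma).

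A dye term, which removes a constant difference between red and green, left the exchanged means as they were and narrowed their errors. The same 7 genes passed as lower and none as higher, against 3% of all genes as higher and 3.71% as lower. An unadjusted p under 0.05 from limma was then found for 21 of the 43 genes, 19 of them below 0. It was also found for 1422 of all 9962 genes, so low p-values were common in this fit. After adjustment 558 of 43794 probes were under 0.05, and the smallest adjusted p of the 43 genes was 0.0618 (limma).

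**Figure D2:**
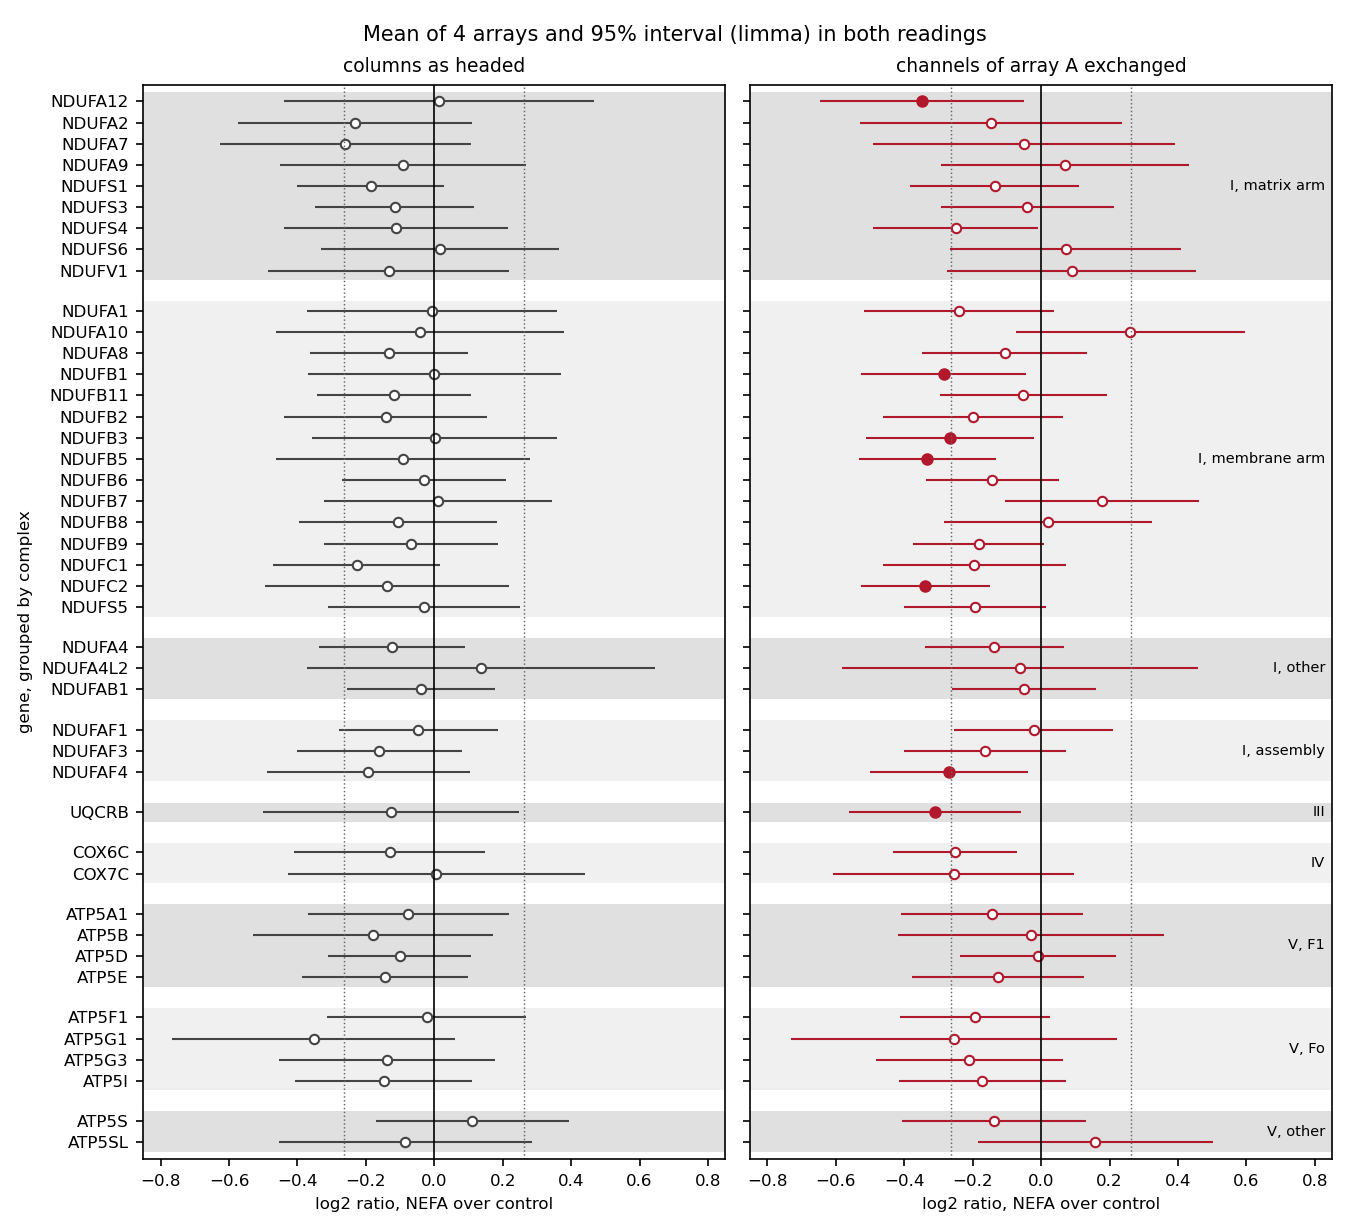
Mean log2 ratio of NEFA to control over 4 arrays (circles) with the 95% interval from limma (lines), with the columns as headed (left) and the channels of array A exchanged (right), and dotted lines at 1.2-fold. Filled circles pass the criterion, none on the left and 7 on the right, all of them below 0.

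The intervals limit what could be seen. The median half-width of the 95% interval was 0.30 on the log2 scale as headed and 0.25 with the channels of array A exchanged. For 40 and 39 of the 43 genes, in that order, the whole interval lay within 1.5-fold of no change, so larger differences were outside the intervals of most genes. A 1.2-fold change is 0.263 on the log2 scale, about the size of these half-widths.

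In the matrix arm of complex I, which takes up NADH and carries electrons along iron-sulfur clusters, 9 genes were measured. All 9 were below 0 on array C and 8 on array D, whereas 7 were below 0 on array A and 3 on array B. Their median was -0.12 as headed and -0.051 with array A exchanged. NDUFV1, the subunit that binds NADH and flavin, had log2 ratios of -0.44, 0.37, -0.13 and -0.33 on arrays A to D. NDUFS1, the largest iron-sulfur subunit, had -0.099, -0.026, -0.29 and -0.33, and NDUFS3, another core subunit, had -0.15, 0.14, -0.26 and -0.19. A second probe of NDUFS3, also above background, had the opposite sign on each array, with 0.17, -0.050, 0.060 and 0.12. Its mean was 0.076 as headed and -0.0089 with array A exchanged. Among these core subunits, NDUFS1 was below 0 on all 4 arrays as headed, with a mean of -0.19 (SE 0.089, unadjusted p = 0.0794 from limma, n = 4). With array A exchanged the means were 0.089 for NDUFV1, -0.14 for NDUFS1 and -0.041 for NDUFS3, none past the test.

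NDUFA12, an accessory subunit of the matrix arm, was the gene of this arm that passed under the exchange. Its normalized log2 intensity was 12.14, 11.94, 11.71 and 12.27 in the NEFA channels of arrays A to D, against 11.42, 12.37, 11.82 and 12.41 in the control channels. NEFA was thus above control on array A and below it on the others. As headed the mean was 0.013 (SE 0.19, unadjusted p = 0.947 from limma, n = 4). With array A exchanged NDUFA12 fell by 0.35 on the log2 scale (SE 0.12, unadjusted p = 0.0287 from limma, n = 4), below control on all 4 arrays. NDUFS4, an accessory subunit known from inherited complex I deficiency in humans, had ratios of 0.28, -0.0012, -0.49 and -0.23, and its mean was -0.11 as headed and -0.25 with array A exchanged (unadjusted p = 0.0447 from limma, n = 4).

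**Figure D3:**
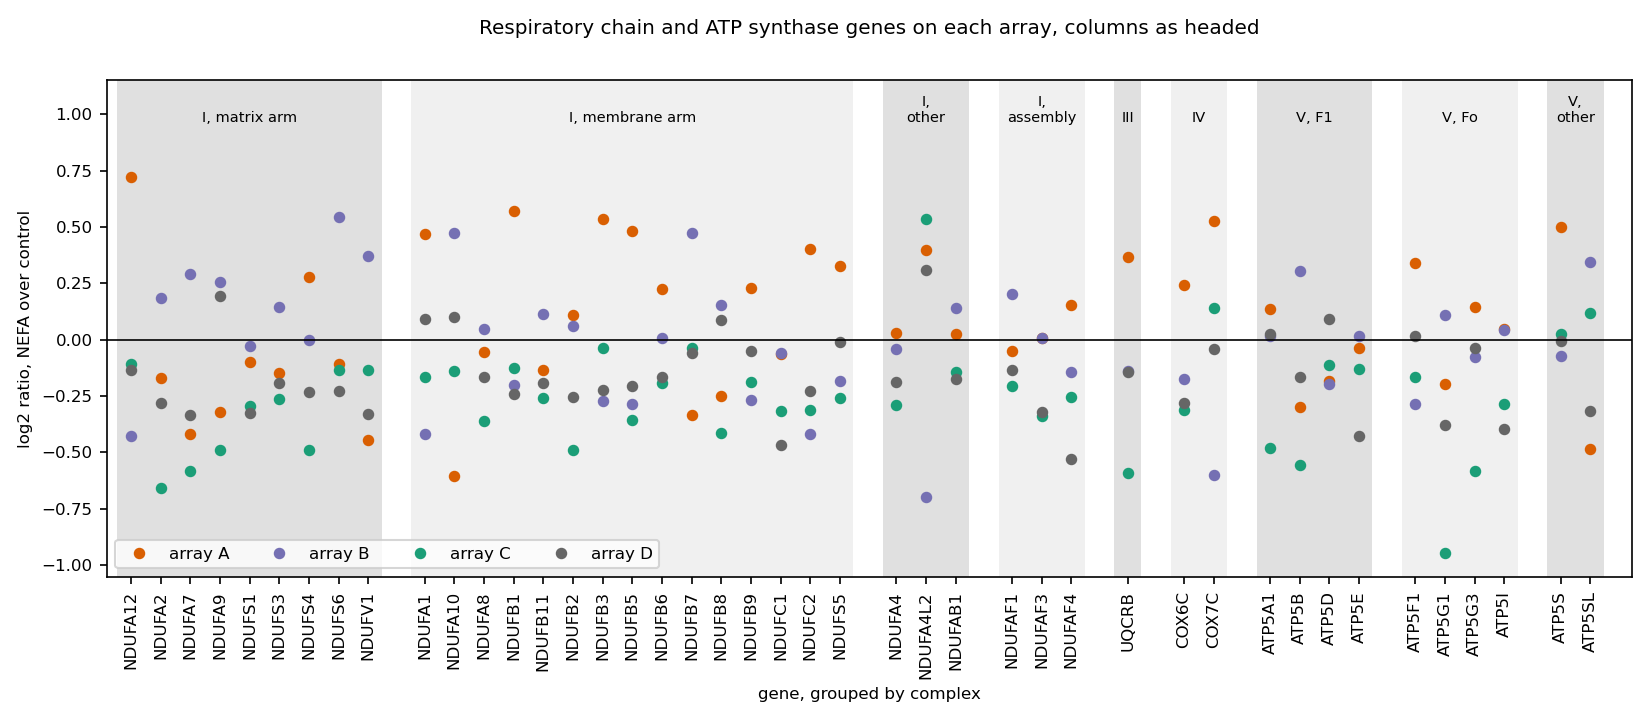
Log2 ratio of NEFA to control of each of the 43 genes on arrays A, B, C and D (colours), columns as headed, grouped by complex and by arm or part. Array C lies below 0 for 39 of 43 genes and array D for 35, while arrays A and B lie on both sides of 0.

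The membrane arm of complex I pumps protons, and its 15 measured genes encode accessory subunits around the mitochondrially encoded core. All 15 were below 0 on array C and 12 on array D, and 6 on array A and 8 on array B. The median was -0.069 as headed and -0.19 with array A exchanged, with 12 of 15 below 0 in each reading and 10 in both. NDUFC2 had normalized log2 intensities of 12.06, 11.81, 11.51 and 12.38 in the NEFA channels of arrays A to D, against 11.65, 12.23, 11.82 and 12.60 in the control channels. It was below control on arrays B, C and D and above it on array A. The mean was -0.14 as headed (SE 0.15, unadjusted p = 0.384 from limma, n = 4), and with array A exchanged NDUFC2 fell by 0.34 (SE 0.078, unadjusted p = 0.00441 from limma, n = 4), the smallest p of the 43 genes. NDUFC1, another accessory subunit of the arm, had -0.063, -0.060, -0.32 and -0.47 and was below 0 on all 4 arrays as headed, with a mean of -0.23 (SE 0.10, unadjusted p = 0.0638 from limma, n = 4).

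NDUFB1, NDUFB3 and NDUFB5, small subunits of the distal part of the arm, had the same order of signs as NDUFC2. NDUFB5 had 14.36, 13.78, 13.26 and 13.70 in the NEFA channels and 13.88, 14.06, 13.61 and 13.91 in the control channels of arrays A to D, in normalized log2 intensity. With array A exchanged it fell by 0.33 (SE 0.082, unadjusted p = 0.00627 from limma, n = 4), and its second probe, dimmer but above background, had -0.24. NDUFB1 had 10.15, 11.25, 12.21 and 11.99 with NEFAs against 9.58, 11.45, 12.33 and 12.23 in control, with a level on array A below that of the other arrays in both channels. NDUFB3 had 11.46, 11.20, 10.79 and 10.84 with NEFAs against 10.92, 11.48, 10.82 and 11.07 in control. Each of these was above control on array A alone. As headed the mean was 0.00024 for NDUFB1 and 0.00082 for NDUFB3, and with array A exchanged NDUFB1 fell by 0.29 (SE 0.099) and NDUFB3 by 0.27 (SE 0.10), with unadjusted p = 0.0268 and 0.0373 from limma (n = 4).

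**Figure D4:**
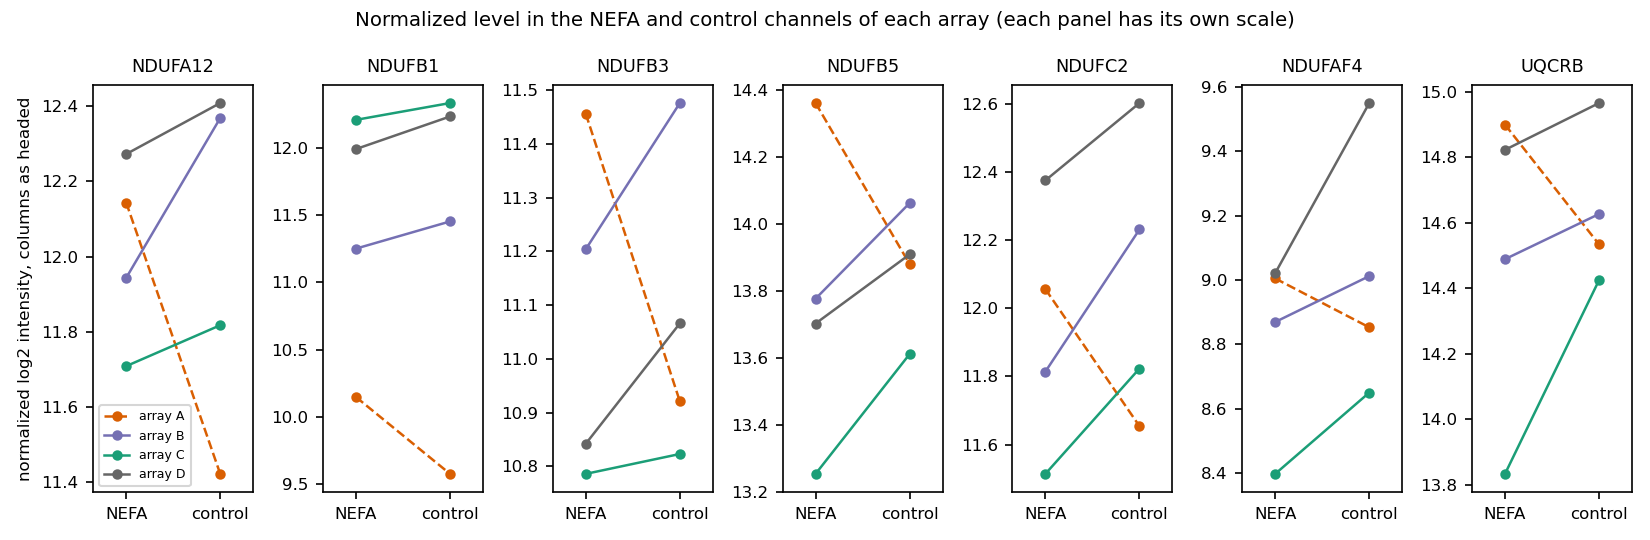
Normalized log2 intensity in the NEFA channel (left point) and the control channel (right point) of each array, columns as headed, for the 7 genes that passed once array A was read with exchanged channels. On arrays B, C and D (solid lines) NEFA was below control for every gene, and on array A (dashed line) above it.

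Not every gene of the membrane arm followed that order. NDUFA10, a subunit related to nucleoside kinases, had -0.61, 0.47, -0.14 and 0.10 on arrays A to D, which gave -0.042 as headed and 0.26 with array A exchanged (SE 0.14, unadjusted p = 0.107 from limma, n = 4), the highest mean of the 43 genes in that reading. NDUFA4, named with complex I but now regarded as a complex IV subunit, had 0.028, -0.042, -0.29 and -0.19, with means of -0.12 and -0.14 in the 2 readings. NDUFA10, NDUFA4, NDUFV1, NDUFS3, NDUFS4, ATP5A1 and ATP5B are named here after their values were seen.

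The assembly factors help to build complex I and are no part of the finished enzyme. All 3 were below 0 on arrays C and D. NDUFAF3 and NDUFAF4 work together on the part that reduces ubiquinone. NDUFAF4 had normalized log2 intensities of 9.01, 8.87, 8.40 and 9.02 in the NEFA channels and 8.85, 9.01, 8.65 and 9.55 in the control channels of arrays A to D. The largest gap was on array D. Its mean was -0.19 as headed (SE 0.12, unadjusted p = 0.163 from limma, n = 4), and with array A exchanged NDUFAF4 fell by 0.27 (SE 0.095, unadjusted p = 0.0288 from limma, n = 4). NDUFAF3 had 0.0083, 0.0089, -0.34 and -0.32, near 0 on arrays A and B, and its mean was -0.16 in both readings, short of the test in each. A second probe of NDUFAF3, also above background, had -0.18 as headed. With array A exchanged that probe had -0.25 (unadjusted p = 0.0494 from limma, n = 4), short of 1.2-fold.

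Complex III was represented by UQCRB alone, a subunit that takes part in binding ubiquinone. Its normalized log2 intensity was 14.90, 14.49, 13.83 and 14.82 in the NEFA channels of arrays A to D, against 14.53, 14.63, 14.42 and 14.97 in the control channels, and the gap on array C was larger than on arrays B and D. As headed the mean was -0.13 (SE 0.15, unadjusted p = 0.441 from limma, n = 4), and with array A exchanged UQCRB fell by 0.31 (SE 0.10, unadjusted p = 0.0234 from limma, n = 4). A second probe for UQCRB, not above background, had 0.15 and 0.050 in the 2 readings.

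For complex IV, COX6C and COX7C were measured, both small nuclear subunits around the catalytic core. COX6C had ratios of 0.24, -0.17, -0.31 and -0.28 on arrays A to D. Its mean was -0.13 as headed (SE 0.11) and -0.25 with array A exchanged (SE 0.074, unadjusted p = 0.0140 from limma, n = 4), just short of 1.2-fold. COX7C had 0.52, -0.60, 0.14 and -0.040, and the values of arrays A and B were of like size and opposite sign. The means were 0.0064 as headed and -0.26 with array A exchanged (SE 0.15, unadjusted p = 0.126 from limma, n = 4).

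Of the 10 ATP5 genes, 8 encode subunits of ATP synthase, while ATP5S and ATP5SL only carry the name. All 8 subunits had means below 0 in both readings, with medians of -0.14 as headed and -0.16 with array A exchanged, and none passed the test in either. All 8 were below 0 on array C, 5 on array D, 4 on array A and 3 on array B. Other fits did not keep all of these means below 0. ATP5A1, ATP5F1 and ATP5G3 were above 0 with no between-array normalization, and also without replicate 3 as headed. ATP5B and ATP5D were above 0 without replicate 3 with array A exchanged. Without replicate 2, ATP5F1 was above 0 as headed (0.067) and ATP5D with array A exchanged (0.052). The 4 genes of F1 had a median of -0.12 as headed and -0.078 with array A exchanged, and the 4 genes of Fo had -0.14 and -0.20. Differences between the parts of the enzyme, and between the complexes, were not tested, since the groups are small and their genes share arrays.

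In F1, ATP5A1 and ATP5B form the catalytic ring. ATP5A1 had 0.14, 0.018, -0.48 and 0.024 on arrays A to D, so its mean of -0.075 rested on array C. ATP5B had -0.30, 0.30, -0.55 and -0.17, with means of -0.18 as headed and -0.029 with array A exchanged. ATP5E, the epsilon subunit of the central stalk, had -0.036, 0.017, -0.13 and -0.43, and its mean of -0.14 (SE 0.10) rested mostly on array D. In Fo, ATP5G1 encodes a c subunit of the ring that turns with the proton flow. Its ratios of -0.20, 0.11, -0.94 and -0.38 gave a mean of -0.35 as headed (SE 0.17, unadjusted p = 0.0824 from limma, n = 4), past 1.2-fold but not the test, and the lowest of the 43 genes. With array A exchanged the mean was -0.25 (SE 0.20). The other probes of ATP5G1, both above background, had -0.31 and -0.19 as headed. ATP5E, ATP5G1 and NDUFAF3 stand in tables that the study drew from these same samples and are not independent evidence of a direction. Other genes of the rule in those tables had no value here, namely ATP5PO, COX5B, COX6B1, COX8A, NDUFAF6 and UQCR10.

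The 22 genes not named with values had log2 ratios between -0.26 and 0.14 as headed (median -0.077, 18 below 0) and between -0.24 and 0.18 with array A exchanged (median -0.084, 17 below 0). Their smallest unadjusted p from limma was 0.136 as headed and 0.0582 with array A exchanged. Of the 13 genes with more than 1 probe, all probes had the same sign in 5 as headed and in 9 with array A exchanged. Among the 7 that had several probes above background, this was so in 3 and 6.

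The shift of the 43 genes as a group was found on arrays C and D. The median log2 ratio was -0.26 on array C and -0.19 on array D, and 0.028 on array A (-0.028 when exchanged) and 0.0076 on array B. Over genes above background the medians were -0.17, -0.069, 0.064 (-0.064 when exchanged) and -0.026 on the same arrays. Over all genes they were -0.057 on array C and -0.039 on array D. Genes above background were thus lower than all genes on these arrays, and no set of genes matched for intensity was compared. With no between-array normalization, 27 of the 43 means over the arrays were below 0, in place of 35 as headed. Below 0 lay 39 of 43 genes on array C and 35 on array D, or 90.7% and 81.4%, against 69.7% and 61.6% of genes above background. On both of these arrays 32 of 43 genes were below 0 (74.4%), against 50.3% of genes above background and 41.3% of all genes. By the channel fields NEFA was in the red channel on arrays C and D and in the green channel on arrays A and B.

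**Figure D5:**
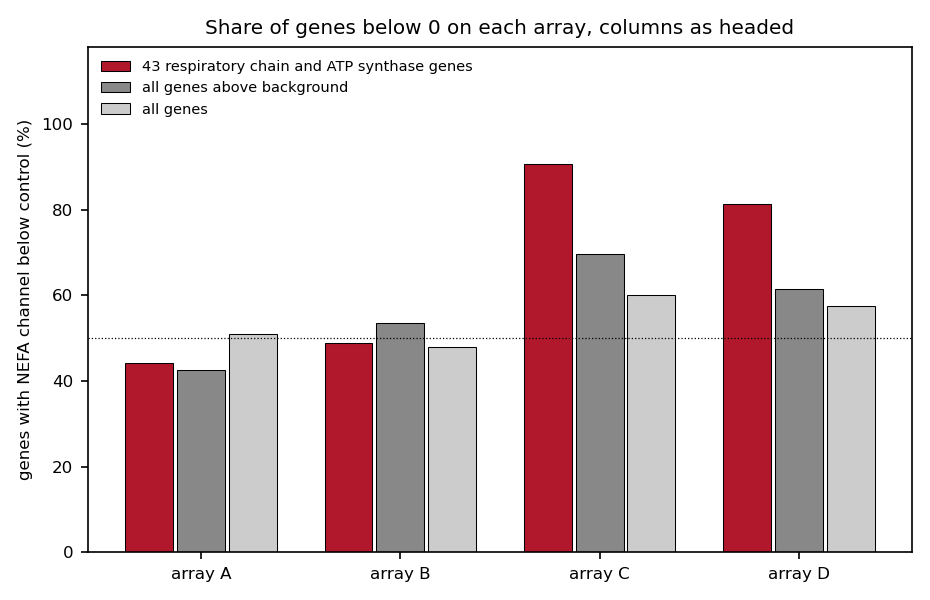
Percentage of genes whose NEFA channel was below control on each array, columns as headed, for the 43 genes (red), all genes above background (dark grey) and all genes (light grey). The 43 genes stand above both others on arrays C (90.7%) and D (81.4%) only, and with its channels exchanged array A would stand at 55.8% for the 43 genes.

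The dye term is the mean of red over green on the same 4 arrays, so it sets arrays C and D against A and B. Genes low on arrays C and D alone get a term below 0, so the term restates this shift and is no second observation. With array A exchanged, it had a median of -0.12 over the 43 genes and was below 0 in 31 of them (72.1%), against -0.035 and 58.3% over all genes. The part of the dyes in the shift on arrays C and D was not tested. Under the exchange 13 genes were below 0 on all 4 arrays (30.2%, against 9.39% of all genes and 19.9% of genes above background). That these lie below 0 in both dye orientations follows from how they were picked and is no separate observation. As headed, 2 genes were below 0 on all 4 arrays, NDUFC1 and NDUFS1, a share of 4.65% that was close to that of all genes (4.75%, and 3.26% of genes above background).

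Other genes that serve the chain were taken from lists. Of 10 measured genes for ubiquinone synthesis and the electron transfer flavoproteins with their dehydrogenase, 8 were below 0 as headed (median -0.053) and 0 passed, while 7 were below 0 with array A exchanged and 1 passed as lower. COQ6, an enzyme of ubiquinone synthesis, had -0.12, and ETFDH, which passes electrons of fatty acid oxidation to ubiquinone, had -0.059 as headed. PDSS1, which makes the tail of ubiquinone, was the gene that passed under the exchange, with -0.40 (SE 0.087, unadjusted p = 0.00319 from limma, n = 4). Of 11 measured assembly factors without the NDUFAF name, which serve complexes I to V, 8 were below 0 in each reading, 6 of them in both, and 0 passed as headed. TACO1, an activator of translation of a complex IV core subunit, had -0.20, and SCO2, a copper carrier for complex IV, had 0.14 from a probe not above background. COX17, the copper chaperone of complex IV, passed as lower under the exchange, with -0.29 (SE 0.088, unadjusted p = 0.0167 from limma, n = 4), a call lost without replicate 4 (-0.22) and not made without replicate 1 (-0.30).

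The tricarboxylic acid cycle, which supplies NADH and succinate, had 9 measured genes with a median of -0.076 as headed and -0.014 with array A exchanged, and none passed in either reading. DLST, of the oxoglutarate dehydrogenase complex, had -0.22 as headed and 0.019 with array A exchanged, and SUCLG1, of succinyl-CoA ligase, had -0.12 and -0.22. In this list the widest moves between the readings were those of CS, citrate synthase, with -0.25 as headed and 0.87 with array A exchanged, and SUCLG2, another subunit of succinyl-CoA ligase, with -0.13 and 0.30. On arrays A to D the ratios of CS were -2.24, 1.65, -0.17 and -0.23, so both means rested on arrays A and B. Of 6 measured regulators of mitochondrial biogenesis none passed in either reading. ESRRA, a nuclear receptor, had -0.12 from a probe not above background, and TFB1M, a methyltransferase of mitochondrial ribosomal RNA, had 0.33 (SE 0.23, unadjusted p = 0.211 from limma, n = 4). PDSS1 and COX17, which passed, and CS and SUCLG2 are named after their values were seen. The mitochondrially encoded subunits had no probe named for them in the annotation at hand and were not analysed here.

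The label of GCs was checked against marker genes. Of 15 granulosa markers 6 were measured, and AMH, FST, NR5A1 and NR5A2 were above background. None of 3 theca, 3 leukocyte and 1 endothelial markers was above background, while 2 of 4 fibroblast markers (COL1A2 and DCN), 2 of 8 oocyte markers (FIGLA and GDF9) and 1 of 3 cumulus markers (HAS2) were. None of these markers passed the criterion in either reading.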

How the data were processed

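RNA of 4 replicates was amplified, labelled with Cy3 and Cy5 and hybridized to 4 EmbryoGENE porcine arrays by the authors. The intensity values they deposited are mean raw spot and mean local background intensities from Array-Pro, not normalized, and a flag of ignored pixels. A table of log2 ratios that the authors deposited, normalized in FlexArray, was not used for results because no match of its rows to spots was found. Of 45220 spots, 43794 probes were analysed, and 60 to 121 ignored probes per array were set to missing. Background was corrected with normexp (offset 50), arrays were normalized by loess and then quantile, and the NEFA to control log2 ratio was fitted with limma 3.58.1 in R 4.3.3, two-sided, on all probes. Plain subtraction, as in the study's methods, was an alternative. The annotation names 1 gene for 13146 probes, and the brightest probe stood for a gene. The procedure was tested on simulated data. Genes were named if they passed the criterion in either reading, had the 2 smallest p of their complex (or of the assembly factors) among genes above background, or stood in the study's tables, which gave 14, and 7 were added. Genes and lists were chosen with earlier results of these data known. The array build was not given in the sources used here, so no coordinates are printed. The number of arrays limits the precision.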

Additional observations from a re-analysis of the deposited data

Results flagged for a closer look

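Of 26 sets of 4 array values examined, 1 stood out, about what chance gives at 1 in 20. For NDUFB1 the log2 ratio of NEFA to control was 0.57 on array A and -0.20, -0.13 and -0.24 on arrays B, C and D, and the gap between array A and the nearest of the others took up 0.856 of the whole range, above the limit of Dixon's test for 4 values. With the channels of array A exchanged its value was -0.57, on the same side of 0 as the others. Whether the columns of array A are exchanged was not tested.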

How the results depend on the processing

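The median of the 43 genes stayed below 0 under every alternative run, between -0.17 and -0.023 when single replicates were left out in either reading. It was -0.048 with no between-array normalization, with 27 of 43 genes below 0 in place of 35, and without replicate 3 as headed 26 were. No gene passed as headed with background subtracted, no background correction, median centring in place of loess, no between-array normalization, an intensity trend with a robust prior, detected probes only, no replicate block or all probes averaged, and 1 passed (ATP5G1, lower) with a dye term. All 7 calls were made with array A exchanged, with or without a dye term. The exchange took CS to 0.87, SUCLG2 to 0.30, NDUFA10 to 0.26, NDUFA12 to -0.35, NDUFB1 to -0.29, NDUFB3 to -0.27, NDUFV1 to 0.089, COX7C to -0.26, ETFDH to 0.0044 and DLST to 0.019. Genes past the criterion, 80 as headed, numbered 19 with no background correction, 10 with detected probes only (of genes above background 10 passed as higher and 26 as lower in the fit of all probes), 44 with no replicate block, that is with the channels of an array not paired, 415 with array A exchanged and 669 with a dye term added. Means changed sign elsewhere too, and not only those near 0, as the mean of UQCRB was -0.13 as headed. Background subtraction gave NDUFB1 -0.0078, no background correction gave NDUFA10 0.014 and NDUFB3 -0.022, no between-array normalization gave NDUFA10 0.0046, UQCRB 0.021, ATP5A1 0.013 and ETFDH 0.046, and the mean of all probes gave NDUFA10 0.020, NDUFB3 -0.0011, UQCRB 0.013 and ETFDH 0.0069. The cause was not tested.

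With each replicate left out in either reading, 0 to 7 of the 43 genes and 26 to 1485 of all genes passed. Without replicate 1, where the reading of array A plays no part, 2 of 43 passed as lower (4.65%, against 2.98% of all genes in either direction), NDUFB5 and NDUFC2, which also passed in the 3 exchanged fits that left out replicate 2, 3 or 4. NDUFA12 lost its call without replicate 2, NDUFB1 and NDUFB3 without 2 or 4, NDUFAF4 without 3 or 4 and UQCRB without 3. Calls were also gained in these exchanged fits. They were NDUFS4 and COX6C without replicate 2, NDUFA10 (higher) and COX7C without 3, and NDUFA1, ATP5F1 and ATP5SL (higher) without 4. In that order 14.0%, 16.3% and 16.3% of the 43 passed, against 3.66%, 6.66% and 5.21% of all genes. Shares of genes above background were not taken for these fits. Without replicate 2 as headed, 1 passed as higher (NDUFA4L2) and 6 as lower (NDUFA2, NDUFA7, NDUFC1, NDUFV1, ATP5B and ATP5G1), or 16.3% of the 43, close to the 14.9% of all genes that passed in that fit. The log2 ratios ran between -0.42 and 0.16 for NDUFA12, -0.34 and 0.083 for NDUFB1, -0.34 and 0.091 for NDUFB3, -0.37 and 0.031 for UQCRB, -0.20 and 0.41 for NDUFA10, -0.30 and 0.23 for NDUFV1, -0.20 and 0.032 for NDUFS3, -0.34 and 0.011 for NDUFS4, -0.39 and 0.21 for COX7C, -0.20 and 0.057 for ATP5A1, -0.35 and 0.13 for ATP5B, -0.22 and 0.18 for COQ6, -0.085 and 0.037 for ETFDH, -0.36 and 0.15 for DLST, -0.88 and 1.25 for CS, -0.45 and 0.48 for SUCLG2, -0.28 and 0.0067 for SUCLG1, -0.14 and 0.048 for ESRRA and -0.058 and 0.58 for TFB1M. The alternative on the authors' table of log ratios was not run, since no match of its rows to spots was found.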
